A study of Mus musculus with 6 samples.

Results

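The genes described here encode the subunits of the SWI/SNF (BAF) chromatin remodeling complexes, taken from the count table as the protein-coding genes named *Smarca* to *Smarce*, *Arid1a*, *Arid1b*, *Arid2*, *Pbrm1*, *Brd7*, *Brd9*, *Dpf1* to *Dpf3*, *Ss18*, *Ss18l1*, *Bcl7a* to *Bcl7c*, *Actl6a*, *Actl6b*, *Phf10*, *Bicra* and *Bicral*. This rule found 32 genes among 22186 protein-coding genes and 40205 genes in all. Of these, 28 encode SWI/SNF subunits, and 4 (*Smarca1*, *Smarca5*, *Smarcad1* and *Smarcal1*) share the *Smarca* name but encode ATPases of the same Snf2 family that work outside SWI/SNF. RNA-seq was run on 4T-1, a mammary carcinoma line of the mouse used as a model of basal-like triple-negative breast cancer. Y641-F cells stably carried retroviral EZH2-Y641-F, a hyperactive form of the histone H3K27 methyltransferase, and Control cells stably carried the MSCV vector. Each group had 3 libraries, from 3 batches of stable cells, so p-values set the group difference against the spread between these batches. The methods name puromycin for Control cells and, in different places, puromycin or hygromycin for Y641-F cells, so a drug effect and an EZH2 effect cannot be told apart.

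SWI/SNF complexes use ATP to slide or eject nucleosomes and so open promoters and enhancers. EZH2 is the enzyme of the Polycomb complex PRC2, which marks histone H3 at lysine 27 and keeps chromatin closed, and SWI/SNF is its classical antagonist. Each SWI/SNF complex holds either of a pair of ATPases, a shared core, and the subunits that make it canonical BAF, PBAF or non-canonical BAF. Several subunits, ARID1A and SMARCA4 among them, are tumor suppressors in carcinomas.

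The libraries held 32509268 to 36429035 counts in Y641-F cells and 32955434 to 34881914 in Control cells. The 32 genes took 0.2049 to 0.2329% of the counts in Y641-F cells and 0.2244 to 0.2417% in Control cells. All 5 markers of mammary epithelium (*Epcam*, *Cdh1*, *Krt7*, *Krt8*, *Krt18*) were abundant, with summed levels of 3159.8 to 3469.7 CPM (read counts relative to library size) in Y641-F cells and 3095.5 to 3302.4 CPM in Control cells. The 5 haematopoietic markers summed to 0.961 to 1.6 CPM in Y641-F cells and 1.52 to 5.45 CPM in Control cells, and the 3 endothelial markers to 0.43 to 1.75 CPM in Y641-F cells and 0.577 to 1.06 CPM in Control cells. The upper haematopoietic value came from Control replicate 2, with 85 counts of *Ptprc* and 75 of *Adgre1*. Control replicates 1 and 3 had 24 and 22 counts of *Ptprc* and 10 and 22 of *Adgre1*. The 4 fibroblast markers summed to 20.3 to 36.1 CPM in Y641-F cells and 34.4 to 49.6 CPM in Control cells, nearly all from *Pdgfra*, with *Lum* at 0 in every library. *Ezh2* itself had a log2 fold change of 0.06 (adjusted p = 0.73 from edgeR), a fold between 0.891 and 1.21. Whether the EZH2 construct gives reads that count toward mouse *Ezh2* is not known here, so this value does not check the labels.

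In Y641-F cells 3 of the genes were higher, *Actl6a*, *Brd7* and *Smarcad1*, and 6 were lower, *Smarca2*, *Smarcc2*, *Ss18l1*, *Phf10*, *Bicra* and *Smarcal1*. The lower genes include the ATPase BRM (*Smarca2*) and the core scaffold BAF170 (*Smarcc2*), and their folds ran between 0.614 and 0.799. The higher genes include the actin-related subunit BAF53A (*Actl6a*) at 1.36-fold. Another 21 did not pass the test, and *Smarca1* and *Actl6b* were too low to be tested. A gene is called here when its adjusted p is under 0.05 in the quasi-likelihood test of edgeR, with p adjusted by Benjamini-Hochberg over the 21043 genes that reached 0.1 CPM in 3 or more libraries. The 9 genes called make 30% of the 30 tested, and 31.6% of all genes tested were called. Of the 27 SWI/SNF subunits tested 2 were higher and 5 lower (25.9%), and the other 2 calls were *Smarcad1* and *Smarcal1*, which work outside the complex. By direction 15.6% of all genes were called higher and 16.0% lower. None of the 30 passed the study's thresholds, a change of at least 1 on the log2 scale in either direction with an unadjusted p of at most 0.05, which 9.16% of all genes passed. The groups did not overlap in 13 of the 30 genes (43.3%) and in 44.5% of all genes. The median absolute log2 fold change was 0.21 over the 30 genes and 0.37 over all genes, and the signed medians were -0.05 over the 30 genes and -0.01 over all genes. Of the 27 genes of the rule with a mean log2 CPM above 3, 8 (29.6%) were called, and 47.3% of the 10692 genes at such levels were called. At these levels the groups did not overlap in 40.7% of the 27 genes and in 59.4% of the 10692. The median absolute log2 fold change was 0.18 over the 27 and 0.29 over the 10692. The study's thresholds were passed by 0 of the 27 and by 483 of the 10692.

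**Figure D1:**
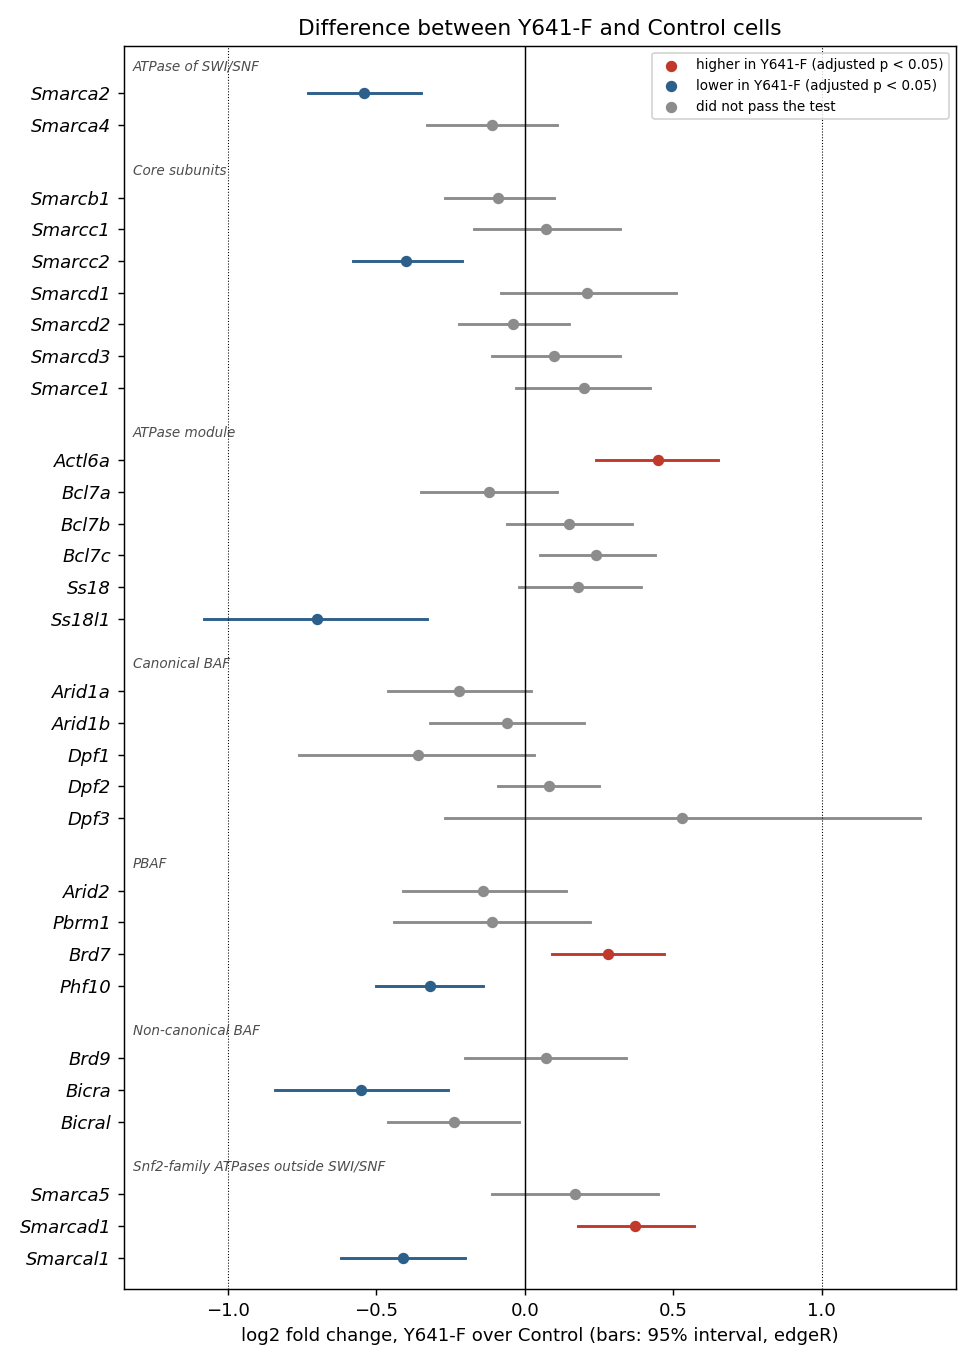
Log2 fold change of each of the 30 tested genes, Y641-F over Control (x axis), with its 95% interval from edgeR (bars), grouped by role in the complexes. Colors mark genes called higher, called lower and not called, and the dotted lines mark the study's threshold of 1 on the log2 scale, which no estimate reaches; the estimates run from -0.70 (*Ss18l1*) to 0.53 (*Dpf3*, not called, 0.22 without Y641-F replicate 2).

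The promoters of the alternative ATPase genes *Smarca2* and *Smarca4* and of *Actl6a* are shown because *Smarca2* was called lower, its paralogue was not called and *Actl6a* was called higher. Each sequence is the 250 bases before the start of the canonical GENCODE transcript, 5′ to 3′ on the GRCm39 genome, with each GC box in capitals (GGGCGG on either strand, so CCGCCC as well).
Smarca2 promoter, chr19:26582963-26583212, plus strand: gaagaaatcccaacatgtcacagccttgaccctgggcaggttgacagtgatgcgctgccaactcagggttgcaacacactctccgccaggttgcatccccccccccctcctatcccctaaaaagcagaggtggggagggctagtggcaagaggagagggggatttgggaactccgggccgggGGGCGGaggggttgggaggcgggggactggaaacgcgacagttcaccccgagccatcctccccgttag
Smarca4 promoter, chr9:21527148-21527397, plus strand: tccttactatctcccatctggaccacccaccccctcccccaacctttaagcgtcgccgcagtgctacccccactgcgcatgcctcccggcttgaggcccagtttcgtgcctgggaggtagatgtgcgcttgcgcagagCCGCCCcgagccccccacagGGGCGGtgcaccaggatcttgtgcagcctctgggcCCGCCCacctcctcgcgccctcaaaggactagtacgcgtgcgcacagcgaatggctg
Actl6a promoter, chr3:32762406-32762655, plus strand: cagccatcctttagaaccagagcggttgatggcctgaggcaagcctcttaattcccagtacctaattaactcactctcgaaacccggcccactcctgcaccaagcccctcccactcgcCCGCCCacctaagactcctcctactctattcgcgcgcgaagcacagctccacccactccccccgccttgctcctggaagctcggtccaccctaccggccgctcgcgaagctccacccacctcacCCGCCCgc
The *Smarca2* window holds 1 GC box, the *Smarca4* window 3 and the *Actl6a* window 2, and none of the 3 holds an E-box (CACGTG, the same on both strands). A GC box was present in 16 of the 32 promoters (50%) and in 36.3% of 21770 promoters of protein-coding genes cut the same way. An E-box was present in 3 of the 32 (9.38%) and in 6.26% of all. The median share of G and C bases was 59.4% over the 32 windows and 53.2% over all, and its part in these frequencies was not tested. GC boxes were present in 2 of the 3 genes called higher, 4 of the 6 called lower and 9 of the 21 not called. A match of letters is not a site where a factor was shown to bind.

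*Smarca2* encodes BRM, an ATPase that drives the complex in place of BRG1. Its level was 53.2, 45.7 and 48.5 CPM in the Y641-F libraries and 69.2, 71.2 and 73.6 CPM in the Control libraries. All Y641-F libraries lay below all Control libraries, at a log2 fold change of -0.54 (SE, standard error, = 0.0868, edgeR adjusted p = 5.88e-04). The gene lies on chromosome 19 from 26582450 to 26755722, and its exons share 40 bases with those of *4931403E22Rik* on the other strand, which was also lower (log2 fold change -0.42, adjusted p = 0.0104 from edgeR). In bulk RNA a lower level in each cell and fewer cells with the transcript cannot be told apart. *Smarca4*, which encodes the other ATPase, BRG1, had 308, 260 and 261 CPM in Y641-F cells and 319, 300 and 277 CPM in Control cells. These groups overlapped, and its log2 fold change of -0.11 did not pass the test (adjusted p = 0.455 from edgeR), with an interval from -0.33 to 0.11. *Smarca4* was the more abundant ATPase in every library, at 43 CPM per kb of transcript in Y641-F cells and 46.4 in Control cells, while *Smarca2* stood at 6.58 in Y641-F cells and 9.54 in Control cells.

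Per kb, *Smarca2* made 13.3 ± 0.446% of the summed ATPase level in Y641-F cells and 17.1 ± 1.46% in Control cells (SD, n = 3 each). Its share was 12.9, 13.1 and 13.8% in the Y641-F libraries and 15.7, 17 and 18.6% in the Control libraries, with no overlap. The ratio of *Smarca2* to *Smarca4* counts within a library does not depend on library scaling, and its log2 value was lower by 0.43 in Y641-F cells (difference -0.43, exact two-sided permutation p = 0.1, the smallest that 3 libraries against 3 can give). Of the 12 pairs of alternative subunits listed, 11 could be compared, and after Benjamini-Hochberg adjustment over the 11 none of the exact tests passed (adjusted p = 0.314 for this pair).

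The core subunits, shared by canonical BAF and PBAF and in part by non-canonical BAF, held 7 genes, of which *Smarcc2* was called lower and 6 were not called. *Smarcc2* encodes BAF170, which pairs with BAF155 to form the scaffold on which the complex assembles. It had 96.5, 98.3 and 90.7 CPM in Y641-F libraries and 130, 127 and 119 CPM in Control libraries. The groups did not overlap, and the log2 fold change was -0.40 (SE = 0.0833, edgeR adjusted p = 0.00328). *Smarcc2* lies on chromosome 10 from 128294424 to 128326456. Its exons share 15 bases with those of *Myl6* on the other strand, which was higher (log2 fold change 0.36, adjusted p = 0.0137 from edgeR). *Smarcc1*, which encodes BAF155, had 224, 165 and 208 CPM in Y641-F libraries and 189, 195 and 183 CPM in Control libraries. Y641-F replicate 2 was below every Control library and the other Y641-F libraries above, and the log2 fold change of 0.07 did not pass the test (adjusted p = 0.667 from edgeR). The share of *Smarcc2* in the pair was 26.6 ± 3.71% in Y641-F cells and 33.2 ± 0.745% in Control cells, and the log2 ratio differed by -0.46 without overlap (exact permutation p = 0.1, adjusted p = 0.314).

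*Smarcb1*, which encodes the core subunit BAF47 (INI1), had 60.7, 60.5 and 68.2 CPM in Y641-F cells and 66.4, 67.8 and 66.9 CPM in Control cells. *Smarce1*, which encodes the HMG-box subunit BAF57, had 194, 161 and 187 CPM in Y641-F cells and 141, 163 and 169 CPM in Control cells. Neither passed the test, at log2 fold changes of -0.09 and 0.20 (adjusted p = 0.486 and 0.175 from edgeR). The BAF60 subunits, alternative bridges to transcription factors, are encoded by *Smarcd1*, *Smarcd2* and *Smarcd3*, and their log2 fold changes of 0.21, -0.04 and 0.10 did not pass either (adjusted p = 0.258, 0.771 and 0.482 from edgeR). Per kb *Smarcd2* made most of their summed level, 69.1 ± 2.63% in Y641-F cells and 71.9 ± 1.35% in Control cells. *Smarcd1* made 13.5 ± 1.94% in Y641-F cells and 11.7 ± 1.08% in Control cells. *Smarcd3*, the BAF60C of heart and muscle, made 17.5 ± 0.95% in Y641-F cells and 16.4 ± 0.646% in Control cells. For *Smarcd2* over *Smarcd1* and *Smarcd3* over *Smarcd1* the log2 ratios overlapped between the groups. Exons of *Smarcd2* share 1269 bases with those of *Psmc5* on the other strand, which was higher (log2 fold change 0.73, adjusted p = 1.91e-04 from edgeR). Exons of *Smarcd3* share 2466 bases with those of *Chpf2* on the other strand, which was not called (-0.11, adjusted p = 0.44 from edgeR). The part of shared reads in these levels and shares was not tested.

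**Figure D2:**
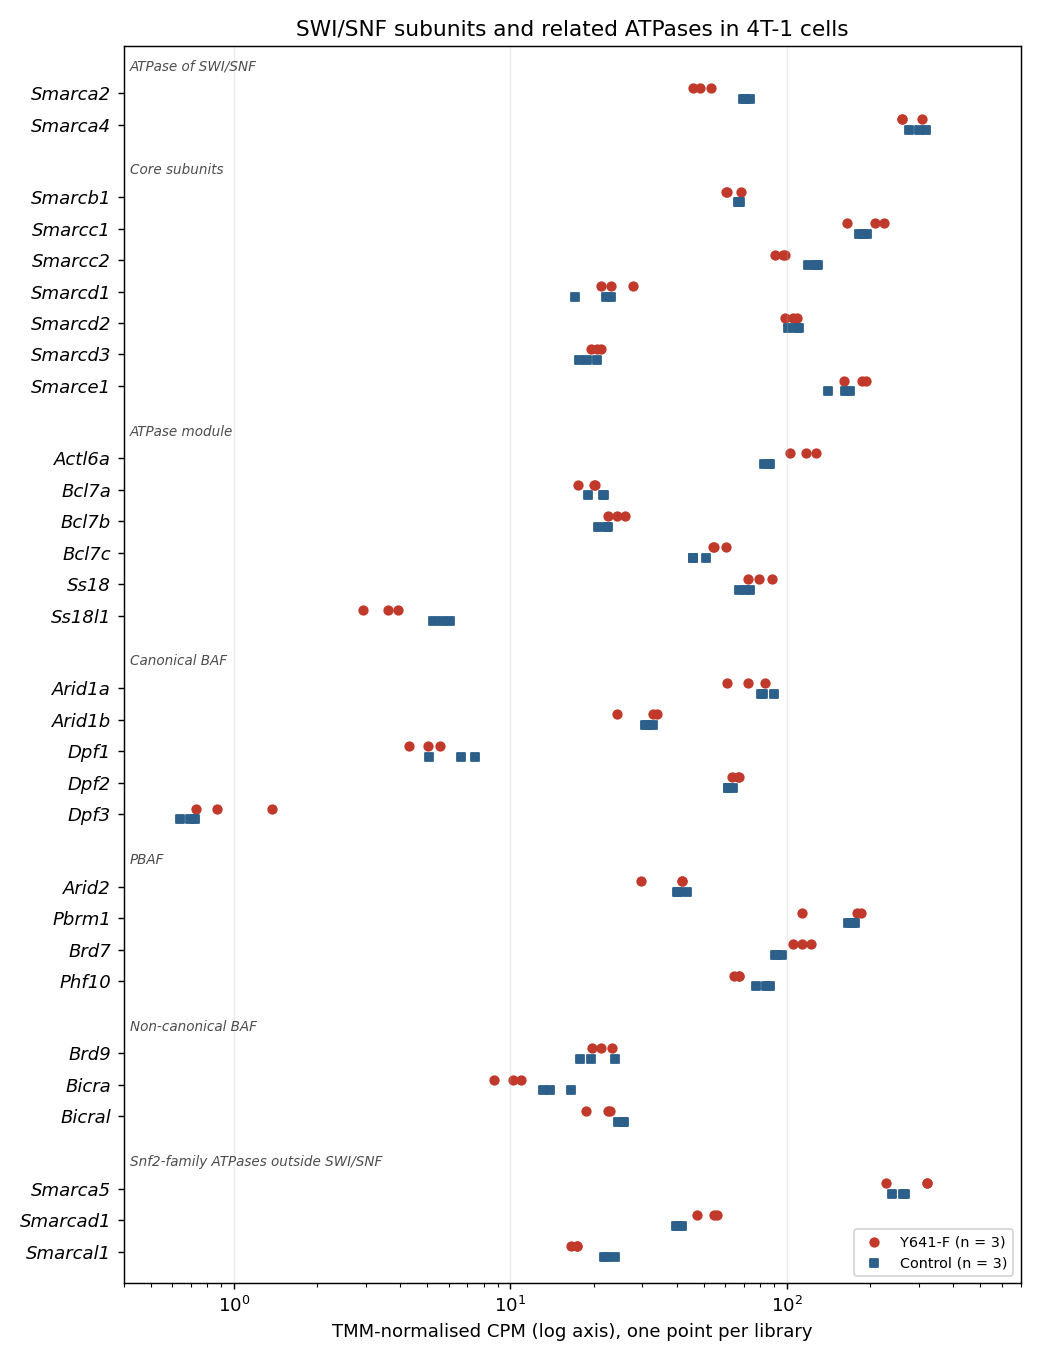
Level of each of the 30 tested genes in each library, in CPM on a log axis, with the 3 Y641-F libraries and the 3 Control libraries drawn as separate points for each gene. Levels run from under 1.5 CPM for *Dpf3* to above 200 CPM for *Smarca4* and *Smarca5*; CPM are not corrected for transcript length.

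The ATPase module, the subunits that dock on the ATPase itself, held the largest fall and the largest rise among the genes called. *Ss18l1* encodes CREST, the SS18 paralogue found in neuronal BAF. It had 112, 128 and 100 counts in Y641-F libraries and 217, 204 and 174 counts in Control libraries, which is 3.6, 3.91 and 2.92 CPM in Y641-F cells and 6.05, 5.66 and 5.27 CPM in Control cells. Each Control library exceeded each Y641-F library, with a log2 fold change of -0.70 (SE = 0.172, edgeR adjusted p = 0.00808) and a fold between 0.474 and 0.796. *Ss18l1* lies on chromosome 2 from 179684290 to 179711995, and its exons share 132 bases with those of *Psma7* on the other strand. *Psma7* had 8401 to 10976 counts in Y641-F libraries and 6783 to 9007 in Control libraries. It was not called (log2 fold change 0.32, adjusted p = 0.0758 from edgeR), and the part of shared reads was not tested. *Ss18*, which encodes the usual subunit and is fused in synovial sarcoma, had 79.4, 72.1 and 88.4 CPM in Y641-F libraries and 67.4, 70.4 and 73.8 CPM in Control libraries, with overlap. Its log2 fold change was 0.18 (adjusted p = 0.169 from edgeR). *Ss18l1* made 4.84 ± 1.11% of the pair per kb in Y641-F cells and 8.48 ± 0.883% in Control cells, and the log2 ratio differed by -0.89 without overlap (exact permutation p = 0.1, adjusted p = 0.314).

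*Actl6a* encodes BAF53A, the actin-related subunit of dividing cells, which also sits in the INO80 and TIP60 complexes. It had 117, 103 and 128 CPM in Y641-F libraries and 82.4, 86.9 and 86.1 CPM in Control libraries. All Y641-F libraries were higher, at a log2 fold change of 0.45 (SE = 0.0952, edgeR adjusted p = 0.00355) and a fold between 1.18 and 1.57. *Actl6a* lies on chromosome 3 from 32760447 to 32781128, and its exons share 458 bases with those of *Mrpl47* on the other strand, a gene that was also higher (log2 fold change 0.92, adjusted p = 1.11e-04 from edgeR). In the GENCODE vM39 annotation of GRCm39, which gives all positions here, 23 of the 32 genes share exon bases with a gene on the other strand. The strand setting of the counting is not given in the sources used here, and the part of shared reads in the *Actl6a* value was not tested. *Actl6b*, the BAF53B of neurons, had 0, 4 and 4 counts in Y641-F cells and 2, 3 and 0 in Control cells, so this alternative to *Actl6a* was at the edge of detection in both groups.

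The neuronal subunits *Ss18l1*, *Dpf1* and *Actl6b* stood beside 4 neuronal markers (*Rbfox3*, *Snap25*, *Map2*, *Syt1*) that summed to 17.5 to 23 CPM in Y641-F cells and 36 to 37.4 CPM in Control cells. Nearly all of this was *Map2*, which fell (log2 fold change -0.73, adjusted p = 0.0013 from edgeR), while *Snap25* did not exceed 6 counts in any library. The part of such expression in the *Ss18l1* value was not tested.

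The BCL7 proteins are small ATPase-module subunits that contact the nucleosome. *Bcl7c* had 60.3, 54.1 and 54.7 CPM in Y641-F cells and 45.9, 45.7 and 51.2 CPM in Control cells. The groups did not overlap, but the log2 fold change of 0.24 did not pass the test (adjusted p = 0.0546 from edgeR). *Bcl7b* had 26, 22.6 and 24.4 CPM in Y641-F cells and 22.6, 20.8 and 22.3 CPM in Control cells, and *Bcl7a* 20.1, 20.3 and 17.5 CPM in Y641-F cells and 21.7, 21.9 and 19.1 CPM in Control cells. The lowest Y641-F and the highest Control library of *Bcl7b* both stood at 22.6 CPM. The log2 fold changes of *Bcl7b* and *Bcl7a* were 0.15 and -0.12 (adjusted p = 0.268 and 0.455 from edgeR). *Bcl7c* was the main paralogue per kb, with 72.9 ± 0.181% of the family in Y641-F cells and 70.7 ± 1.6% in Control cells.

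**Figure D3:**
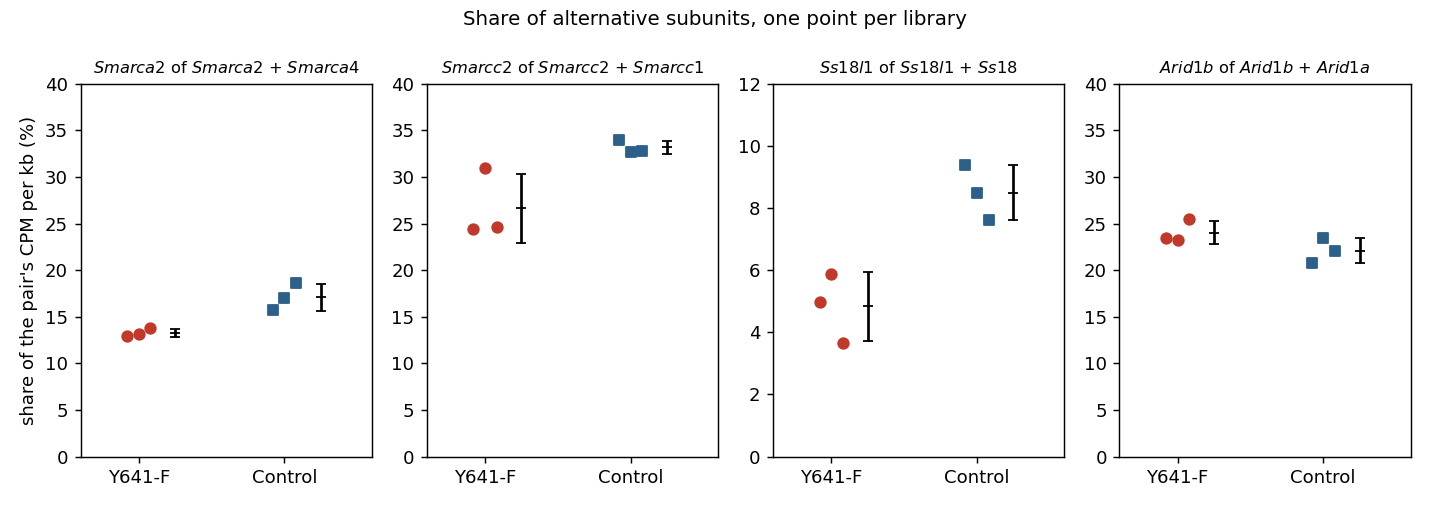
Share of *Smarca2*, *Smarcc2*, *Ss18l1* and *Arid1b* in the summed level of their pairs of paralogues, in percent of CPM per kb of transcript. Each of the 4 pairs has 1 point for each library and the mean ± SD beside it (n = 3). The axis of *Ss18l1* ends at 12%. *Smarcc2* and *Smarcc1* encode subunits that pair with each other. The shares of *Smarca2*, *Smarcc2* and *Ss18l1* are lower in all 3 Y641-F libraries than in any Control library, and those of *Arid1b* overlap.

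None of the 5 subunits that define canonical BAF was called. *Arid1a*, which encodes the DNA-binding BAF250A, had 83.5, 60.7 and 72.5 CPM in Y641-F libraries and 89.9, 80.6 and 81.8 CPM in Control libraries. Y641-F replicate 1 overlapped the Control libraries, and the log2 fold change was -0.22 (adjusted p = 0.165 from edgeR), with an interval from -0.46 to 0.02. *Arid1b*, its alternative, had 33.8, 24.3 and 32.9 CPM in Y641-F libraries and 31.4, 32.9 and 30.6 CPM in Control libraries. It had a log2 fold change of -0.06 (adjusted p = 0.751 from edgeR) and made 24 ± 1.25% of the pair per kb in Y641-F cells and 22.1 ± 1.35% in Control cells.

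The DPF subunits read acetylated histone tails. *Dpf2*, the broadly used one, had 63.6, 66.7 and 66.9 CPM in Y641-F cells and 61.4, 63.7 and 61.1 CPM in Control cells, a log2 fold change of 0.08 with an interval from -0.09 to 0.25. *Dpf1*, the neuronal one, had 5.02, 5.59 and 4.29 CPM in Y641-F cells and 7.44, 6.63 and 5.06 CPM in Control cells (log2 fold change -0.36, adjusted p = 0.155 from edgeR). *Dpf3* had 27, 45 and 25 counts in Y641-F cells and 23, 26 and 23 counts in Control cells. At this depth its log2 fold change of 0.53 had an interval from -0.27 to 1.33 and did not pass the test (adjusted p = 0.317 from edgeR). It was highest in Y641-F replicate 2, and without that library the log2 fold change was 0.22.

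Of the 4 PBAF subunits, *Brd7* was called higher and *Phf10* lower. *Brd7* encodes a bromodomain subunit that binds acetylated histones and acts with p53. It had 122, 105 and 113 CPM in Y641-F libraries and 92.2, 95.9 and 90.6 CPM in Control libraries, without overlap. The log2 fold change was 0.28 (SE = 0.0869, edgeR adjusted p = 0.0261), and the call was lost when any library other than Y641-F replicate 2 was left out, with adjusted p between 0.0533 and 0.091. *Brd7* lies on chromosome 8 from 89057667 to 89088875, and its exons share 1505 bases with those of *Adcy7* on the other strand (log2 fold change of *Adcy7* 0.34, adjusted p = 0.0332 from edgeR), and the part of shared reads was not tested.

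*Phf10* encodes BAF45A, the PHD-finger subunit of PBAF. It had 67.2, 67.3 and 64.4 CPM in Y641-F libraries and 77.6, 84.4 and 86.8 CPM in Control libraries. The Control libraries were all higher, and the log2 fold change was -0.32 (SE = 0.0825, edgeR adjusted p = 0.0105). Without Control replicate 2 the adjusted p from edgeR was 0.0567. *Phf10* lies on chromosome 17 from 15164719 to 15182008, and its exons share 1474 bases with those of *1600012H06Rik* on the other strand, which was not called (log2 fold change -0.04, adjusted p = 0.774 from edgeR). *Arid2*, the BAF200 scaffold of PBAF, had 41.6, 29.6 and 41.9 CPM in Y641-F libraries and 43.6, 40.2 and 40.5 CPM in Control libraries. *Pbrm1*, the polybromo subunit lost in many kidney carcinomas, had 179, 113 and 185 CPM in Y641-F libraries and 176, 166 and 172 CPM in Control libraries. Both overlapped between the groups, with Y641-F replicate 2 the lowest of the 6 libraries, and their log2 fold changes of -0.14 and -0.11 did not pass the test (adjusted p = 0.456 and 0.636 from edgeR). Exons of *Pbrm1* share 170 bases with those of *Gnl3* on the other strand, which was higher in Y641-F cells (log2 fold change 1.23, adjusted p = 1.46e-06 from edgeR), and the part of shared reads was not tested.

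Non-canonical BAF is defined by *Brd9* and by *Bicra* (GLTSCR1) or *Bicral* (GLTSCR1L), which take the place of an ARID subunit. *Bicra* had 10.2, 8.73 and 10.9 CPM in Y641-F libraries and 16.6, 13.9 and 13.1 CPM in Control libraries. It was lower in every Y641-F library, at a log2 fold change of -0.55 (SE = 0.133, edgeR adjusted p = 0.00789). *Bicra* lies on chromosome 7 from 15704596 to 15782088. Its exons share 88 bases with those of *Gm38948* on the other strand, which was not called (log2 fold change -0.30, adjusted p = 0.809 from edgeR). *Bicral* had 22.9, 22.5 and 18.8 CPM in Y641-F libraries and 25.5, 24.6 and 25.7 CPM in Control libraries. The groups did not overlap, but the log2 fold change of -0.24 did not pass the test (adjusted p = 0.0994 from edgeR). *Brd9* had 21.3, 23.4 and 19.7 CPM in Y641-F libraries and 24, 17.9 and 19.5 CPM in Control libraries, with overlap (log2 fold change 0.07, adjusted p = 0.718 from edgeR).

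Summed per kb over the scaffolds that set the form of the complex, canonical BAF (*Arid1a* and *Arid1b*) took 55.6 ± 1.64% in Y641-F cells and 54.5 ± 0.164% in Control cells (SD, n = 3 each). PBAF (*Arid2*) took 21 ± 1.77% in Y641-F cells and 19.9 ± 0.0656% in Control cells, and non-canonical BAF (*Bicra* and *Bicral*) 23.5 ± 2.89% in Y641-F cells and 25.6 ± 0.173% in Control cells. In each form Y641-F replicate 2 lay on 1 side of the Control libraries and Y641-F replicates 1 and 3 on the other. Canonical BAF took 53.9% in Y641-F replicate 2, 57.2 and 55.6% in replicates 1 and 3, and 54.3 to 54.6% in Control libraries. PBAF took 19.3%, 20.8 and 22.8%, and 19.9 to 20% in the same order. Non-canonical BAF took 26.8%, 21.9 and 21.6%, and 25.5 to 25.8%. The part of transcript length in these shares was not tested. These are shares of mRNA, not of assembled complexes.

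Of the 4 ATPases outside SWI/SNF, *Smarcad1*, a remodeler that restores heterochromatin behind the replication fork, had 54.7, 47.2 and 56.1 CPM in Y641-F libraries and 40.5, 41.7 and 39.7 CPM in Control libraries. All Y641-F libraries were higher, at a log2 fold change of 0.37 (SE = 0.0909, edgeR adjusted p = 0.00786). *Smarcad1* lies on chromosome 6 from 65019560 to 65093045. *Smarcal1*, which anneals DNA at stalled replication forks, had 17.4, 16.6 and 17.4 CPM in Y641-F libraries and 24, 22.3 and 21.8 CPM in Control libraries. It was lower in every Y641-F library (log2 fold change -0.41, SE = 0.0951, edgeR adjusted p = 0.00622). *Smarcal1* lies on chromosome 1 from 72574766 to 72675951. Its exons share 946 bases with those of *Marchf4* on the other strand, which was not called (log2 fold change -0.50, adjusted p = 0.368 from edgeR). *Smarca5*, the ISWI ATPase SNF2H, had 322, 228 and 320 CPM in Y641-F libraries and 241, 264 and 268 CPM in Control libraries. Y641-F replicate 2 lay below all the Control libraries and the other Y641-F libraries above them, and the log2 fold change of 0.17 did not pass the test (adjusted p = 0.354 from edgeR). *Smarca1*, the other ISWI ATPase, had 3, 1 and 0 counts in Y641-F cells and 1, 10 and 1 in Control cells.

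Partners of BAF outside the naming rule were *Actb*, the actin of the ATPase module, and *Bcl11a* and *Bcl11b*, zinc finger proteins that join BAF in lymphoid and neural cells. *Bcl11b* had 8, 3 and 3 counts in Y641-F libraries and 30, 36 and 40 counts in Control libraries. The groups did not overlap, and the log2 fold change was -2.79 (SE = 0.514, edgeR adjusted p = 0.00139) at levels of about 1 CPM or less. *Actb* and *Bcl11a* had log2 fold changes of 0.31 and -0.22 and did not pass the test (adjusted p = 0.0592 and 0.29 from edgeR).

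Per kb the most abundant of the 30 genes in Y641-F cells were *Actl6a* at 57.6, *Smarce1* at 57.5, *Smarcc1* at 55.3, *Bcl7c* at 48.1, *Smarca5* at 47.2 and *Smarca4* at 43 CPM per kb. In Control cells these genes stood at 42.2, 50.1, 52.5, 40.6, 42 and 46.4 CPM per kb. At the other end were *Ss18l1* with 0.798 CPM per kb in Y641-F cells and 1.3 in Control cells, and *Dpf3* with 0.26 in Y641-F cells and 0.18 in Control cells. The BAF scaffolds with long transcripts were low on this scale, with *Arid1a* at 8.12 CPM per kb in Y641-F cells and 9.46 in Control cells and *Arid1b* at 2.57 in Y641-F cells and 2.68 in Control cells.

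The Y641-F libraries differed with transcript length. Among genes with a mean log2 CPM above 3, the median distance of Y641-F replicate 2 from the Y641-F mean was -0.01 in the shortest of 10 length bins and -0.17 in the longest. Y641-F replicate 1 went the other way, from -0.04 to 0.12, and Y641-F replicate 3 stood at 0.05 and 0.06. Distances from a shared mean do not single out 1 library. Y641-F replicate 2 was the lowest Y641-F library for 19 of the 30 genes (63.3%) and for 39.6% of the 18482 genes tested that have a transcript length. Among the 10 genes of the rule with a canonical transcript of at least 6000 bases it was the lowest for 9 (90%), and for 57.5% of all genes of that length. The median log2 fold change was -0.18 over these 10 genes and -0.13 over all genes of that length, against 0.09 over the 20 shorter genes of the rule and 0.00 over all shorter genes. Of the 10 genes 0 were called higher and 3 lower, and of all 2521 genes of that length 281 higher and 593 lower. Of the 20 shorter genes 3 were called higher and 3 lower, and of all 15961 shorter genes 2745 higher and 2554 lower. Over the 30 genes transcript length and the distance of Y641-F replicate 2 from the Y641-F mean had a Spearman's rho of -0.41, and over 10200 genes with a mean log2 CPM above 3 it was -0.24; these are descriptions across genes that share the same libraries. The same library had the highest share of mitochondrial counts, 3.517%, against 2.071 and 2.916% in the other Y641-F libraries and 1.421 to 2.225% in Control libraries. Without it 13 of the 30 genes were called, 7 higher and 6 lower, with 35.9% of all genes. The 9 genes called with all libraries were among the 13, and the 4 gained were *Bcl7c*, *Smarca5*, *Smarce1* and *Ss18*, all higher. The part of RNA quality in these values was not tested.

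**Figure D4:**
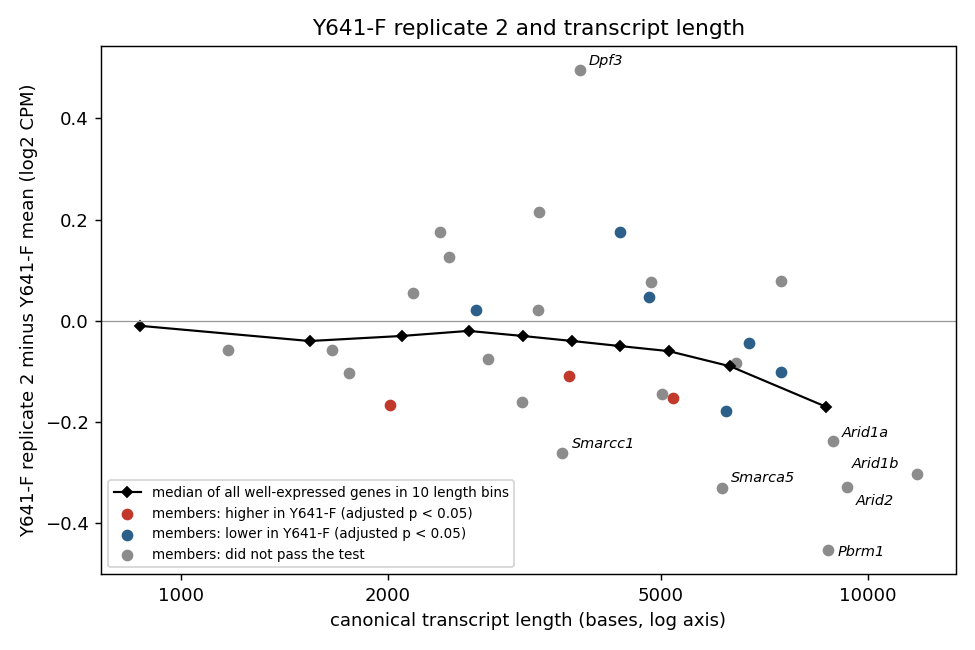
Deviation of Y641-F replicate 2 from the mean of the Y641-F libraries (log2 CPM, y axis) against the length of the canonical transcript in bases (log axis) for the 30 tested genes, with the median of 10 length bins of all genes with a mean log2 CPM above 3 as a line. The median falls from -0.01 in the shortest bin to -0.17 in the longest, and the lowest of the 30 genes are *Pbrm1* (-0.4537), *Smarca5* (-0.33), *Arid2* (-0.3288) and *Arid1b* (-0.3024). The same median for Y641-F replicate 1, not drawn, rises from -0.04 to 0.12.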

How the data were processed

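RNA-seq counts of 3 Y641-F and 3 Control libraries of 4T-1 cells were used. The authors deposited raw read counts per gene, and the submitters' processing notes name featureCounts 2.0.1 and STAR 2 with the GRCm39 genome, after fastp 0.20.1 and bcl2fastq 2.19.0.316, with FastQC 0.11.9 and MultiQC 1.9 as quality checks. The reads were from a NovaSeq. The annotation and strand setting were not given in the sources used here. Reads of overlapping genes may be shared or lost. All sample columns were used (0 left out).

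Counts were analyzed in R 4.3.3 with edgeR 4.0.16, with TMM scaling and a filter of 0.1 CPM in at least 3 libraries as the study's methods name them. The test was the quasi-likelihood test, two-sided, with Benjamini-Hochberg adjustment over 21043 genes, which the methods do not name. Alternatives used DESeq2 1.42.0, limma 3.58.1, other scaling and filters, a block on the replicate number and leaving out single libraries. Offsets corrected for transcript length were added after seeing the data. Intervals are 95% confidence intervals of the difference between groups from the edgeR fit, not ranges of the libraries. Log2 ratios of paralogous subunits used raw counts plus 0.5 and an exact permutation test over the 6 libraries. Levels between genes were compared as CPM per kb of the GENCODE vM39 canonical transcript, and promoters were read from the GRCm39 genome. Tables and figures were made in Python 3.11.15 with matplotlib 3.10.9, pandas 2.3.3, scipy 1.17.1 and numpy 2.4.6. The analysis was tested on simulated data. Every gene of the rule is named, and of the lists of other remodelers up to 3 called genes with the largest changes. Genes that overlap a gene of the rule, and the other genes of short counts (*Chd1l*, *Gatad2a*, *Mta1*, *Gatad2b*, *Ino80c*, *Hltf* and *Rad54b*), lie outside this and were chosen after seeing their values. The genes and lists were chosen with earlier results of these data known.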

Additional observations from a re-analysis of the deposited data

How the results depend on the processing

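The 9 genes called had groups without overlap, so leaving out 1 library could hardly reverse a direction. All 9 kept their direction under every alternative run, and 120 of their 126 alternative values stayed past the threshold. The other 6 were *Brd7* without any library but Y641-F replicate 2 (adjusted p from edgeR 0.0533 to 0.091) and *Phf10* without Control replicate 2 (0.0567). With single libraries left out, the number of the 30 genes of the rule called higher ranged from 2 to 7, with 7 without Y641-F replicate 2, and the number called lower from 5 to 7. *Arid1a* was gained without Y641-F replicate 1 (log2 fold change -0.33, adjusted p = 0.0462 from edgeR). *Bcl7c* passed with DESeq2 size factors, a filter of 1 CPM, the DESeq2 Wald test, and without Y641-F replicate 2 or Control replicate 3 (adjusted p 0.0253 to 0.0494). With offsets corrected for transcript length *Ss18* passed (0.23, adjusted p = 0.0459 from edgeR) and *Arid1b* turned to 0.07. The same offsets made the change smaller for *Smarca2* (-0.54 to -0.43), *Smarcal1* (-0.41 to -0.31), *Bicra* (-0.55 to -0.47) and *Actl6a* (0.45 to 0.38). It was also smaller for *Smarcc2* (-0.40 to -0.35) and *Ss18l1* (-0.70 to -0.67). The change grew for *Phf10* (-0.32 to -0.35), *Brd7* (0.28 to 0.30) and *Smarcad1* (0.37 to 0.43). Among genes not called, the log2 fold change changed sign in the leave-one-out fits of *Smarcc1* (-0.02 to 0.19), *Brd9* (-0.02 to 0.19), *Arid1b* (-0.14 to 0.08), *Arid2* (-0.22 to 0.01) and *Pbrm1* (-0.23 to 0.08). The cause was not tested. The pairs of paralogous subunits kept their direction in all 88 alternative values, but part of this was fixed in advance. The block on the replicate number gives the main difference by construction. In the 3 pairs without overlap, leaving out 1 library cannot change the direction.

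Libraries with the same replicate number showed little shared deviation from their group means (correlations -0.0705, -0.00402 and 0.102). These values cannot tell whether such libraries were handled together. With the replicate block 6393 of 21043 genes were called, and 3 of the 30 genes of the rule were called higher and 6 lower. Across the alternatives 4731 to 7328 genes were called in all, 45.5 to 51.4% of them higher. *Smarca1* and *Actl6b* had too few counts to be tested, the interval of *Dpf3* spanned -0.27 to 1.33, and with 3 libraries a group the exact tests cannot go below p = 0.1.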

Other observations

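Other families of chromatin remodelers were described by the same test beside the SWI/SNF genes. Of 31 genes of the INO80, SRCAP and EP400 complexes, several of which exchange histone H2A variants, 8 were called higher and 1, *Ino80c*, lower in Y641-F cells. *Ino80e* (log2 fold change 0.70, adjusted p = 5.98e-05 from edgeR), *Uchl5*, the deubiquitinase of INO80 and the proteasome (0.61, adjusted p = 4.99e-04 from edgeR), and *Ino80b* (0.60, adjusted p = 0.00464 from edgeR) moved most. *Actl6a*, called higher among the SWI/SNF genes, encodes a subunit of several of these complexes too. Of 20 CHD and NuRD genes 3 were higher and 4 lower. *Chd6* (-0.93, adjusted p = 9.64e-05 from edgeR), *Chd2* (-0.54, adjusted p = 9.14e-04), *Mta1* and *Gatad2b* were lower, and *Cdk2ap1* (0.56, adjusted p = 8.03e-04), *Chd1l* and *Gatad2a* were higher.

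Of 11 genes of the ISWI complexes, the partners of *Smarca5* and *Smarca1*, 1 was higher and 1 lower. *Baz1a*, the ACF1 partner of SNF2H, had a log2 fold change of 0.37 (adjusted p = 0.039 from edgeR), and *Baz2a*, the TIP5 subunit that silences ribosomal DNA, one of -0.55 (adjusted p = 3.37e-04 from edgeR). Of 12 other Snf2-family ATPases 2 were higher and 3 lower. *Btaf1*, which strips TBP from DNA, stood at 0.74 (adjusted p = 2.86e-04 from edgeR) and the repair ATPase *Ercc6* at 0.48 (adjusted p = 0.0229). The fork remodeler *Zranb3* stood at -0.53 (adjusted p = 6.44e-04), and *Hltf* and *Rad54b* were lower with it. Of all genes tested 15.6% were called higher and 16.0% lower. These 4 lists are better expressed, with a median of the mean count from 1305.0 to 3026.5 against 290 over all genes. Of the 10692 genes with a mean log2 CPM above 3, 2744 were called higher and 2309 lower (47.3% in all). Whether these lists differ from the SWI/SNF genes was not tested.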
